A study of Mus musculus with 18 samples.

Results

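Kinesins are motor proteins that use ATP to walk along microtubules or to take them apart. Described here are 38 kinesin genes in J774 cells, an established line of mouse macrophages, after exposure to talc, to titanium dioxide (TiO2), to estradiol or to a particle together with estradiol. The members are all genes whose symbol begins with Kif and a number in the annotation of the array, out of 23102 genes measured. By their textbook roles 11 work mainly in cell division (Kif2c, Kif4, Kif11, Kif14, Kif15, Kif18a, Kif18b, Kif20a, Kif20b, Kif22 and Kif23) and are called mitotic here. A further 15 carry cargo or form part of transport motors (Kif1a, Kif1b, Kif1c, Kif3a, Kif3b, Kif3c, Kif5a, Kif5b, Kif5c, Kif13a, Kif13b, Kif16b, Kif17, Kif21a and Kif21b). The other 12 act in cilia, signalling or microtubule turnover, or have no settled role, and include Kif4-ps, a pseudogene. Kif2a and Kif2b, relatives of the mitotic Kif2c, were placed among these 12. The sets were drawn up with earlier results of these data known.

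Total RNA of the cells was hybridised to 18 Affymetrix arrays, 3 in each of 6 groups. All cells were grown in medium without phenol red, plated in plates of 24 wells and harvested after 24 h. The groups were vehicle alone, 17-β estradiol (2 µg/mL) alone, talc (10 µg per well) with vehicle, talc with estradiol, TiO2 (10 µg per well) with vehicle, and TiO2 with estradiol. Nothing in the labels says that arrays of 1 group hold RNA of separately treated cultures. The p-values below therefore reflect the spread between arrays, part of which may be technical.

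The dividing cell builds a bipolar spindle, lines the chromosomes up on it, pulls them apart and then cuts itself into daughter cells, and a different set of kinesins serves each step. Genes for these motors are transcribed mostly in late G2 phase and mitosis. The transport kinesins instead carry vesicles, lysosomes, endosomes and mitochondria outward along microtubules in cells at rest and in cycle, and in macrophages they are known for moving lysosomes and for serving podosomes, the adhesive feet of the cell.

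A short promoter element, the cell cycle genes homology region or CHR, is known in genes that peak in G2 phase and mitosis. The promoters of the members were therefore read from the RefSeq table of GRCm38.p6, which held 31 of the 38 genes, in a window from 250 bases before to 50 after the transcription start. The CHR was searched as TTTGAA or TTCGAA and the CCAAT box as CCAAT, each on both strands, so that TTCAAA and ATTGG also count. No CHR match overlapped a CCAAT match in the mitotic promoters. A CHR match stood in 9 of the 10 mitotic promoters found and in 1 of 13 promoters of 11 transport kinesins (Kif1a). It stood in 3 of 12 promoters of 10 other kinesins and in 19.2% of all 32851 promoters in the table. A CCAAT match stood in 6 of the 10 mitotic promoters, in 4 of 13 transport promoters and in 37.4% of all promoters. A match is a description of these letters and not a mapped binding site. The stretches from 120 bases before to 30 after the start are shown for 5 mitotic kinesins with a match near the start, for Kif18a as the mitotic promoter without one, and for Kif1c as the transport kinesin that was higher with talc. Each is written 5′ to 3′ on the strand of the gene, with the CHR match in capitals.
Kif11 (chr19:37376262-37376411, plus strand): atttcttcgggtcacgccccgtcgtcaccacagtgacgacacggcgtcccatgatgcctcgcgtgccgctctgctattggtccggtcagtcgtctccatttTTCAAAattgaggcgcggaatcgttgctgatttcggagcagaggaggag
Kif15 (chr9:122950961-122951110, plus strand): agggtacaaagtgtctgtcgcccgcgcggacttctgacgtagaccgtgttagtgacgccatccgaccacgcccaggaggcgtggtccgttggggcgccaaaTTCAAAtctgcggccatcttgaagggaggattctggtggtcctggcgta
Kif22 (chr7:127042391-127042540, minus strand): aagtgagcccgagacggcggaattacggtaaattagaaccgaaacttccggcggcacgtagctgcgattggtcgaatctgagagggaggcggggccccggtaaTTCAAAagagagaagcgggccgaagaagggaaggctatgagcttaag
Kif18b (chr11:102925095-102925244, minus strand): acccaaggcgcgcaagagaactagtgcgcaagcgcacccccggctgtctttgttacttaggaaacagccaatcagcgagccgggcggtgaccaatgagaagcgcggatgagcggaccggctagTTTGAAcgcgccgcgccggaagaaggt
Kif23 (chr9:61946770-61946919, minus strand): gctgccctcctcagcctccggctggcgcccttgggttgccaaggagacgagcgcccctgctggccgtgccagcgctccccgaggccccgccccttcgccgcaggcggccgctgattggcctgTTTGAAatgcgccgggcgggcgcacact
Kif18a (chr2:109280618-109280767, plus strand): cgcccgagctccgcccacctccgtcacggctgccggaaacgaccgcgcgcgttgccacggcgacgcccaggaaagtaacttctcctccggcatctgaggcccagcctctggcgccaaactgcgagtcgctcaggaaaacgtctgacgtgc
Kif1c (chr11:70700428-70700577, plus strand): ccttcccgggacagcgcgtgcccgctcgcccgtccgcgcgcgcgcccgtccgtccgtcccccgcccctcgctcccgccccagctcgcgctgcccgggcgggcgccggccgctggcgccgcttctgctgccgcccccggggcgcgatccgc
In Kif11 and Kif15 the match begins 19 bases before the start and in Kif22 it begins 17 bases before it, while in Kif23 and Kif18b it begins at bases 3 and 4, counting the start as base 1. A CCAAT match begins upstream of the CHR match near the start in 4 of the 5: reversed at 45 bases before the start in Kif11, 54 in Kif22 and 7 in Kif23, and forward at 53 and 30 in Kif18b. A CHR match beginning within 60 bases before to 30 after the start stood in 7 of the 10 mitotic promoters and in 5.19% of all promoters. Such a match also stood in 1 of 13 transport promoters and in 2 of 12 promoters of the other kinesins. Among the 7 mitotic promoters, Kif4 and Kif20b are not shown. Kif4 had CCAAT matches upstream of its CHR match, and Kif20b had none. Outside the mitotic set, Kif24 and Kif26b also had a CCAAT match upstream of a CHR match near the start. How often this order occurs in all promoters was not counted.

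Each gene is given as the average of its probe sets in log2 intensity, and a difference of 1 on this scale is a factor of 2. All 11 mitotic kinesins lay above the median level of all genes, 4.73, as did 12 of the 15 transport kinesins and 5 of the 12 others. All 10 macrophage markers lay above that median too, and none of 5 lymphocyte and none of 5 granulocyte markers did. Of the fibroblast markers 2 of 6 and of the epithelial markers 2 of 5 lay above it. The median intensity of an array ran from 45.6 to 48.0. The 3 arrays of TiO2 plus estradiol had the lowest upper quartiles, 222 to 233 against 238 to 249 elsewhere, and are followed separately below. Array numbers run through the groups in order, so an effect of array order and a treatment effect cannot be told apart.

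The first question was what talc does to the kinesins. All 11 mitotic kinesins fell with talc against vehicle, by 0.62 to 1.30 on the log2 scale with a median change of -0.90, and Kif1c, a carrier of vesicles, rose by 0.43. In the presence of estradiol the same 11 fell and Kif1c rose again, with a mitotic median of -0.70. Genes were called where the limma p, adjusted after Benjamini and Hochberg across the 23102 genes, was under 0.05, and by that rule 4.52% of all genes were lower and 3.94% higher with talc against vehicle. With estradiol in both groups the shares were 3% lower and 4.13% higher. Among genes above the median level, where all mitotic kinesins lie, 8.64% were lower with talc against vehicle and 5.47% with talc plus estradiol against estradiol. The talc arrays of all 11 mitotic kinesins lay below the control arrays without overlap in each arm, which 12.6% and 12% of all genes also did. These comparisons share no array, and 2.27% of all genes were lower and 2.33% higher in both. Markers of cell type moved beside the mitotic kinesins. Of the 10 macrophage markers 3 fell with talc against vehicle, Mrc1 by 1.62 ± 0.14, Adgre1 by 0.79 ± 0.16 and Itgam by 0.57 ± 0.10, and in the estradiol arm Mrc1 fell by 0.94 ± 0.14, Itgam fell by 0.37 ± 0.10 and Cd14 rose by 0.37 ± 0.09. The mean of the 10 ran from 9.75 to 9.77 in the vehicle arrays, 9.36 to 9.50 with talc, 9.63 to 9.64 with estradiol and 9.50 to 9.54 with talc plus estradiol. The fibroblast marker Pdgfra fell by 0.67 ± 0.16 and 0.89 ± 0.16, while the mean of the 6 fibroblast markers overlapped between each talc group and its control. No epithelial, lymphocyte or granulocyte marker was called in either arm. The part of the marker changes in the mitotic fall was not tested. In RNA of a whole culture, fewer cells that express a gene and less of its RNA per cell cannot be told apart.

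**Figure D1:**
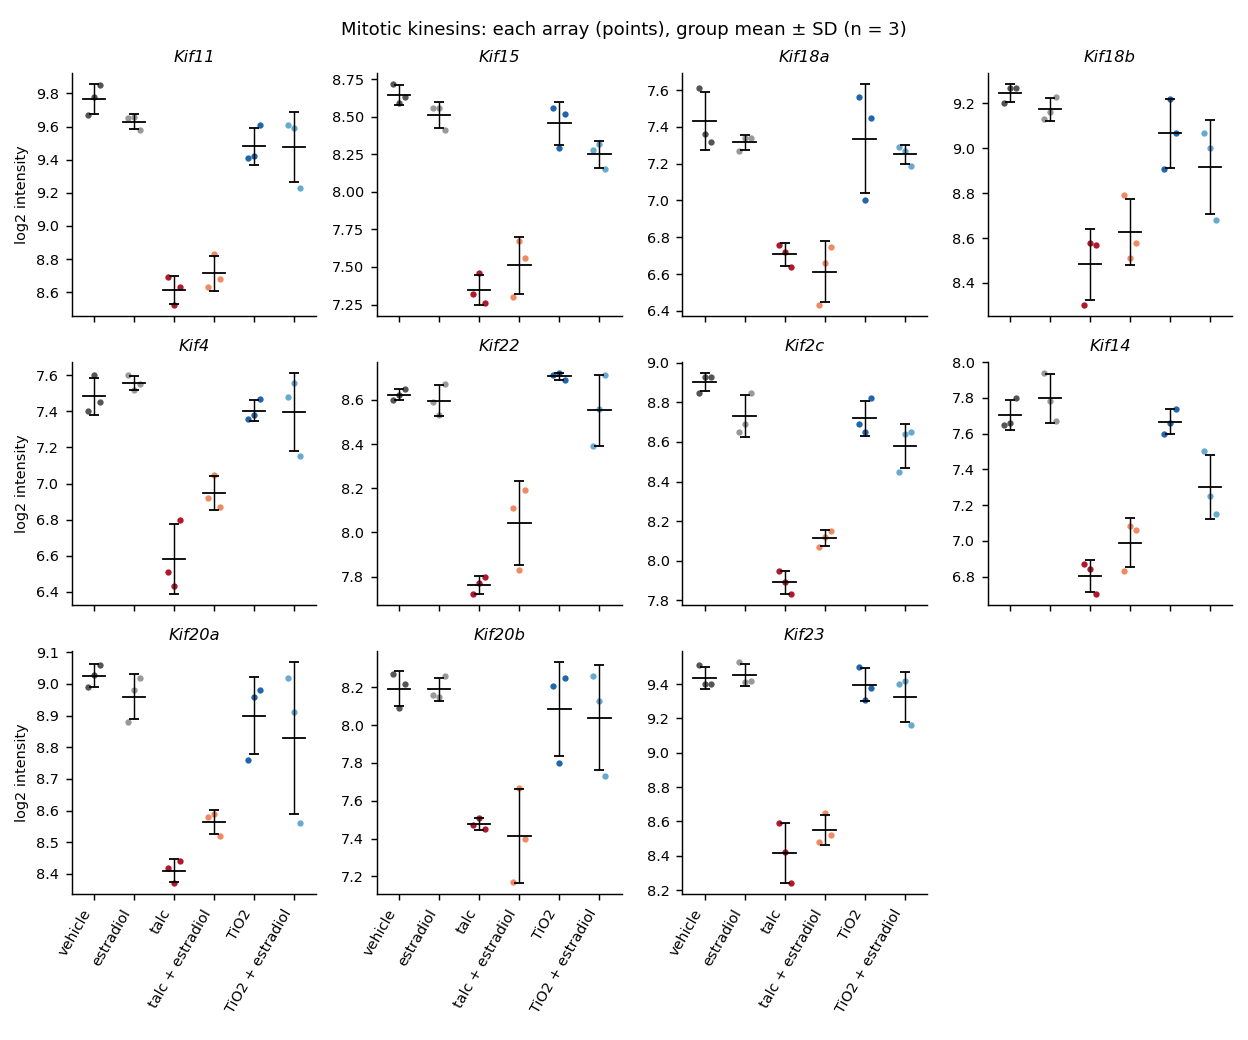
Log2 intensity of the 11 mitotic kinesins (vertical axis of each panel, with its own range) in the 6 treatment groups. Points are single arrays, and bars are the group mean ± SD of 3 arrays. In every panel the 6 talc arrays, with or without estradiol, lie below the 6 arrays of vehicle and estradiol.

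Kif11 and Kif15 build the spindle. Kif11 is the tetrameric motor that slides antiparallel microtubules and pushes the spindle poles apart, and Kif15 holds the poles apart beside it. Kif11 read 9.67, 9.78 and 9.85 in the vehicle arrays and 9.65, 9.66 and 9.58 with estradiol. It read 8.69, 8.52 and 8.63 with talc and 8.63, 8.83 and 8.68 with talc plus estradiol. The TiO2 arrays gave 9.41, 9.42 and 9.61 and those of TiO2 plus estradiol 9.61, 9.59 and 9.23. All 6 talc arrays were thus lower than any other array, and the nearest array of another group read 9.23. The fall was 1.15 ± 0.11 (SE) against vehicle, 2.22-fold, with an adjusted p of 9.9e-06 in limma, and 0.92 ± 0.11 in the estradiol arm (adjusted p 1e-04).

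For Kif15 the vehicle arrays gave 8.72, 8.59 and 8.63 and the estradiol arrays 8.56, 8.56 and 8.41. Talc gave 7.32, 7.46 and 7.26 and talc plus estradiol 7.30, 7.67 and 7.56. TiO2 gave 8.56, 8.29 and 8.52 and TiO2 plus estradiol 8.28, 8.32 and 8.15. The talc arrays again lay apart from all others, and Kif15 had the largest fall of any kinesin in both arms. It fell by 1.30 ± 0.11 against vehicle, 2.46-fold (limma adjusted p 4.1e-06), and by 1.0 ± 0.11 against estradiol (adjusted p 6.1e-05).

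The next motors move, hold or shorten microtubules at the chromosomes. Kif2c takes microtubules apart at centromeres and so corrects faulty attachments. Its level was 8.85, 8.93 and 8.93 with vehicle and 8.65, 8.69 and 8.85 with estradiol. It was 7.95, 7.89 and 7.83 with talc and 8.07, 8.12 and 8.15 with talc plus estradiol. TiO2 arrays stood at 8.69, 8.65 and 8.82 and those of TiO2 plus estradiol at 8.45, 8.64 and 8.65. The spread within the groups was small beside the gap, and no talc array overlapped with another group. The fall was 1.01 ± 0.09 against vehicle, 2.02-fold (limma adjusted p 6.2e-06), and 0.62 ± 0.09 against estradiol (adjusted p 0.00054).

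Kif22 sits on chromosome arms and pushes them toward the spindle equator. Vehicle arrays read 8.60, 8.62 and 8.65 and estradiol arrays 8.59, 8.53 and 8.67. Talc arrays read 7.72, 7.77 and 7.80, and talc plus estradiol arrays 8.11, 7.83 and 8.19. With TiO2 the values were 8.71, 8.72 and 8.69, and with TiO2 plus estradiol 8.39, 8.56 and 8.71. The 3 talc arrays without estradiol were the lowest, and those with estradiol lay between them and the rest. Kif22 fell by 0.86 ± 0.11 against vehicle (limma adjusted p 6.4e-05) and by 0.56 ± 0.11 against estradiol (adjusted p 0.0034).

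Kif4 binds chromosomes during condensation and later sets the length of the overlap zone in the middle of the spindle. It measured 7.40, 7.60 and 7.45 with vehicle, and 7.60, 7.52 and 7.55 with estradiol. With talc it measured 6.51, 6.43 and 6.80, and with talc plus estradiol 6.92, 7.05 and 6.87. TiO2 arrays measured 7.36, 7.38 and 7.47, and TiO2 plus estradiol arrays 7.48, 7.56 and 7.15. Talc arrays were the lowest in both arms, and the 3 without estradiol lay below the 3 with it. The fall was 0.90 ± 0.12 (limma adjusted p 0.00013) and in the estradiol arm 0.61 ± 0.12 (adjusted p 0.0045). The pseudogene Kif4-ps, read by 1 probe set, changed by -0.20 and -0.40 and did not pass in either arm, and whether that probe set also reads Kif4 RNA was not tested.

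Kif18b shortens the astral microtubules at their tips, and Kif18a, its relative, damps the swings of chromosomes at the equator. Kif18b stood at 9.20, 9.27 and 9.27 with vehicle and 9.13, 9.16 and 9.23 with estradiol. Talc brought values of 8.30, 8.58 and 8.57 and talc plus estradiol 8.79, 8.51 and 8.58. TiO2 arrays held 8.91, 9.22 and 9.07 and TiO2 plus estradiol arrays 9.07, 9.0 and 8.68. The last of these lay within the range of the talc plus estradiol arrays, the one overlap of a TiO2 array with talc arrays for this gene. Kif18b fell by 0.76 ± 0.12 (limma adjusted p 0.00069) and by 0.54 ± 0.12 with estradiol (adjusted p 0.011). Without talc plus estradiol replicate 2 or 3 its adjusted p in the estradiol arm was 0.053 or 0.051, and with its brightest probe set 0.17. Kif18a had group means of 7.43 ± 0.16 (SD, n = 3) with vehicle, 7.31 ± 0.04 with estradiol, 6.70 ± 0.06 with talc and 6.61 ± 0.17 with talc plus estradiol. It fell by 0.73 ± 0.13 (limma adjusted p 0.0018) and 0.70 ± 0.13 (adjusted p 0.0032), falls of nearly the same size, and with its brightest probe set the second did not pass (0.12).

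The last group of mitotic motors cuts the cell. Kif23 bundles the central spindle as part of centralspindlin, together with Racgap1. Its arrays gave 9.51, 9.40 and 9.40 with vehicle and 9.53, 9.41 and 9.42 with estradiol. They gave 8.59, 8.42 and 8.24 with talc and 8.48, 8.65 and 8.52 with talc plus estradiol. With TiO2 they gave 9.50, 9.31 and 9.38 and with TiO2 plus estradiol 9.40, 9.42 and 9.16. The values with TiO2 lay among or just below the controls, and the talc values all lay lower. Kif23 fell by 1.02 ± 0.11, 2.03-fold (limma adjusted p 2e-05), and by 0.90 ± 0.11 with estradiol (adjusted p 9.7e-05).

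Kif14 brings citron kinase to the midbody, the bridge between daughter cells. Vehicle gave 7.65, 7.66 and 7.80 and estradiol 7.94, 7.78 and 7.67. Values of 6.87, 6.84 and 6.70 were found with talc and of 6.83, 7.08 and 7.06 with talc plus estradiol. TiO2 arrays had 7.60, 7.66 and 7.74, and TiO2 plus estradiol arrays 7.50, 7.25 and 7.15. The TiO2 plus estradiol arrays lay between the estradiol and the talc arrays, without overlap with either. Kif14 fell by 0.90 ± 0.11 with talc (limma adjusted p 7.9e-05) and by 0.81 ± 0.11 in the estradiol arm (adjusted p 3e-04).

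Kif20a carries the chromosomal passenger complex to the spindle middle, and Kif20b acts late in the separation of the daughters. Kif20a averaged 9.03 ± 0.03 (SD, n = 3) with vehicle, 8.96 ± 0.08 with estradiol, 8.41 ± 0.04 with talc and 8.56 ± 0.04 with talc plus estradiol. Its falls of 0.62 ± 0.11 (limma adjusted p 0.0016) and 0.39 ± 0.11 (adjusted p 0.038) were the smallest of the mitotic kinesins. The second was called in 9 of 18 fits that each left out 1 array, and was not called without any of the 3 estradiol or 3 talc plus estradiol arrays, without talc replicate 1 or 3, or without vehicle replicate 2 (adjusted p up to 0.13). In a fit of the 6 arrays alone its adjusted p was 0.067. Kif20b averaged 8.19 ± 0.10 with vehicle, 8.19 ± 0.06 with estradiol, 7.48 ± 0.03 with talc and 7.41 ± 0.25 with talc plus estradiol. It fell by 0.72 ± 0.15 (limma adjusted p 0.0056) and 0.78 ± 0.15 (adjusted p 0.0042). With its brightest probe set alone the change with talc was -0.44 and did not pass (adjusted p 0.23).

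In size the mitotic falls were moderate. Kif15, Kif11, Kif23 and Kif2c fell at least 2-fold with talc against vehicle, and with estradiol present none of the 11 did, Kif15 being just short of it. The order of the falls was led by the spindle motors Kif15 and Kif11 in both arms, and the 95% intervals of neighbours in that order overlapped widely. Averaged over the 11 genes, the 3 talc arrays stood 0.90, 0.90 and 0.92 below the vehicle mean and the 3 talc plus estradiol arrays 0.83, 0.71 and 0.74 below it.

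**Figure D2:**
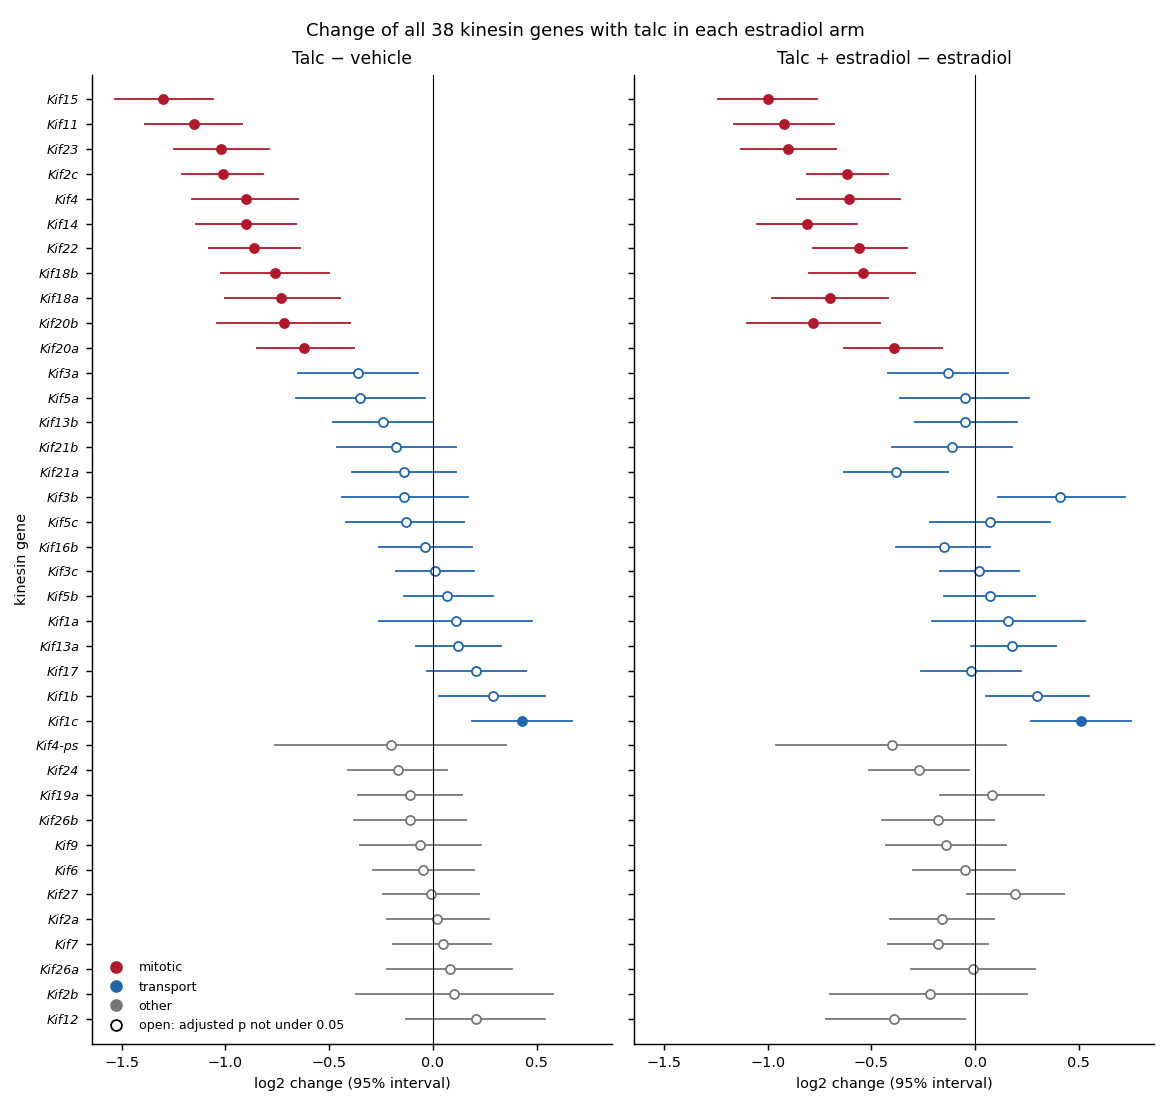
Log2 change of each of the 38 kinesin genes with talc against vehicle (left) and with talc plus estradiol against estradiol (right), with 95% intervals of the limma fit, 3 arrays a group. Filled points passed an adjusted p of 0.05; all 11 mitotic kinesins lie left of 0 in both panels, and Kif1c is the only filled point to the right.

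Nearly all probe sets of these genes were lower with talc. The mitotic kinesins were read by 244 probe sets with a single gene symbol, 14 to 28 for each gene, and 235 of these (96.3%) were lower with talc against vehicle, against 49.6% of all probe sets. In the estradiol arm 231 of 244 were lower (94.7%). Tested one by one over all probe sets, 95 mitotic probe sets were called lower and 0 higher with talc against vehicle, where 1.08% of all probe sets were called lower. In the estradiol arm 39 were called lower and 0 higher, where 0.549% of all were called lower. There 0 of 17 probe sets of Kif18a and 0 of 22 of Kif20a were called. Every probe set was lower with talc against vehicle for 6 genes, Kif11 (23 of 23), Kif15 (28 of 28), Kif23 (27 of 27), Kif18a (17 of 17), Kif18b (16 of 16) and Kif20b (28 of 28). In the estradiol arm every probe set was lower for Kif11, Kif15, Kif23 and Kif18a, while Kif18b had 15 of 16 lower and Kif20b 26 of 28. Of the 366 probe sets of transport kinesins, 180 were lower (49.2%) with talc against vehicle and 0 were called in either direction. Probe sets of a gene share its RNA and are not replicates.

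**Figure D3:**
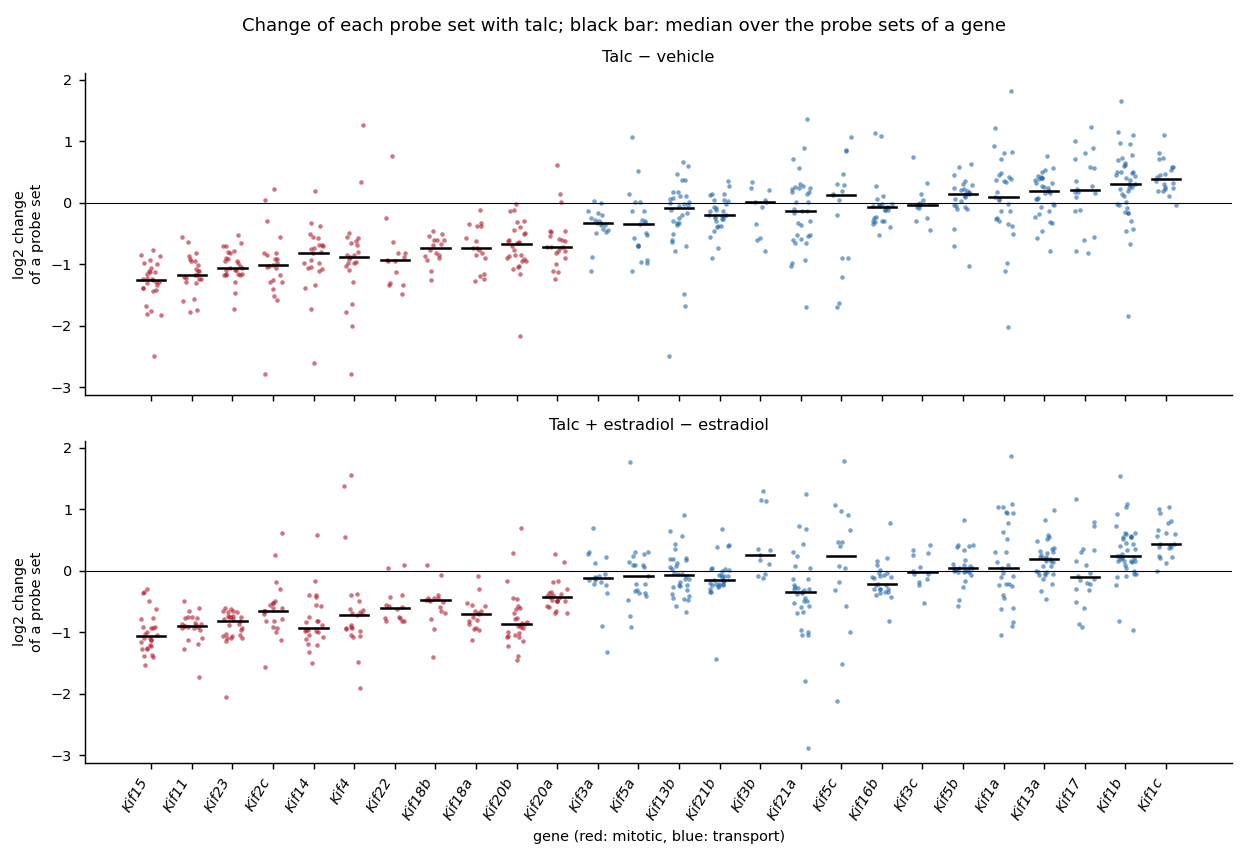
Log2 change of each probe set (point) of the mitotic (red) and transport (blue) kinesins with talc against vehicle (top) and with talc plus estradiol against estradiol (bottom); the black bar is the median over the probe sets of a gene. Of 244 mitotic points, 235 lie below 0 in the top panel and 231 in the bottom one, while the blue points lie on both sides of 0.

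The transport kinesins showed no common direction with talc. Their median change was -0.04 with talc against vehicle and 0.02 in the estradiol arm, where the medians of all genes were 0.02 and 0.00. Averaged over the 15 genes, each talc array lay within 0.07 of the vehicle mean. Kif1c was the one transport kinesin called in the talc comparisons. It is a vesicle carrier of the kinesin-3 class that also serves podosomes in macrophages. Its arrays gave 7.91, 8.0 and 8.12 with vehicle and 8.09, 7.89 and 7.97 with estradiol. They gave 8.53, 8.42 and 8.38 with talc and 8.57, 8.28 and 8.63 with talc plus estradiol. With TiO2 they gave 8.32, 8.29 and 8.05 and with TiO2 plus estradiol 7.92, 7.79 and 7.89. Talc arrays were higher without overlap (13.6% and 14.2% of all genes in the 2 arms) than all arrays of vehicle, estradiol and TiO2 plus estradiol, and the TiO2 arrays overlapped those of talc plus estradiol. Kif1c rose by 0.43 ± 0.11 (limma adjusted p 0.023) and by 0.51 ± 0.11 with estradiol (adjusted p 0.010), and 19 of its 20 probe sets were higher in each arm. The call was not made in a fit of the 6 arrays alone (adjusted p 0.061 and 0.066) or with its brightest probe set (0.17 and 0.071). Nor was it made without talc replicate 1 or 2 or vehicle replicate 1 or 2 (adjusted p 0.054 to 0.099), or, in the estradiol arm, without estradiol replicate 2 or talc plus estradiol replicate 3 (0.052 and 0.062).

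The other 14 transport kinesins did not pass in either talc comparison. Of the subunits of conventional kinesin, which hauls mitochondria and lysosomes, Kif5b changed by 0.07 in each arm, Kif5c by -0.13 and 0.07, and Kif5a by -0.35 and -0.05. Kif5b had a 95% interval of -0.14 to 0.29 in the talc arm, which does not reach the smallest mitotic fall of 0.62. That does not hold for every transport kinesin. Over the 15, the lowest bound of a 95% interval in that arm was -0.66, which does reach it. The motors of the kinesin-2 class, which serve cilia and endosomes, changed by -0.36 and -0.13 (Kif3a), -0.14 and 0.41 (Kif3b) and 0.01 and 0.02 (Kif3c). Among the kinesin-3 carriers, Kif1a changed by 0.11 and 0.16, Kif1b by 0.29 and 0.30, Kif13a by 0.12 and 0.18, Kif13b by -0.24 and -0.05, and Kif16b, which positions early endosomes, by -0.04 and -0.15. Kif17 changed by 0.21 and -0.02, Kif21a by -0.14 and -0.38, and Kif21b by -0.18 and -0.11. Unadjusted p fell under 0.05 for 5 of the 15 with talc against vehicle and 4 of 15 in the estradiol arm, against 19.8% and 19.1% of all genes.

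Of the 12 other kinesins none passed in either talc comparison. Their changes ran from -0.20 to 0.21 against vehicle and from -0.40 to 0.19 against estradiol. Kif2a, a microtubule depolymerase and the close relative of Kif2c, had a mean level of 8.03 and changed by 0.02 and -0.16. Kif2a did not share the fall of the mitotic set. It was placed outside that set when the sets were drawn up, with earlier results of these data known. That every mitotic kinesin fell therefore depends on where this line was drawn. Kif24, which acts at centrioles and holds back the growth of a cilium, changed by -0.17 and -0.27.

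The second particle, TiO2, tests whether a mineral particle at the same mass does the same. No kinesin was called with TiO2 against vehicle or with TiO2 plus estradiol against estradiol, and limma called 0 of all genes in the first and 1 gene, which was higher, in the second (0.00433%). At an unadjusted p under 0.05, 5 of the 38 kinesins passed in the first, with 1 mitotic one among them (Kif11, -0.29, adjusted p 0.52), and 6 in the second, with 2 mitotic ones, against 8.16% and 8.91% of all genes. The mitotic medians were -0.10 and -0.15, where those of genes above the median level were 0.01 and -0.06. Of the mitotic kinesins 10 of 11 and 11 of 11 had a change below 0. The shares below 0 were 52% and 53.1% of all genes, and 48.6% and 66.9% of genes above the median level. For 4 of 11 and 3 of 11 mitotic kinesins the TiO2 arrays lay below the control arrays without overlap, against 6.42% and 8.41% of all genes. Among the 11551 genes above the median level, 734 and 1539 were lower without overlap. The arrays of TiO2 plus estradiol had the lowest upper quartiles, and the part of that in the mitotic changes was not tested. Of the 244 mitotic probe sets 68.9% and 73.8% had a change below 0, against 51.3% and 53.2% of all probe sets. Averaged over the 11 mitotic genes, the TiO2 arrays stood 0.11, 0.18 and 0.04 below the vehicle mean and those of TiO2 plus estradiol 0.16, 0.16 and 0.37 below it, so replicate 3 of the latter was the lowest array outside the talc groups. Kif14 was the furthest in the second, at -0.49 ± 0.11 (adjusted p 0.40). The smallest mitotic fall with talc against vehicle, that of Kif20a, was larger than the change with TiO2 against vehicle of any of the 11.

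The direct comparison of the particles gives the test of that difference. All 11 mitotic kinesins were lower with talc than with TiO2, by 0.49 to 1.11, with a median of -0.83 and without overlap of arrays, where 5.35% of all genes were called lower, 4.61% were called higher and 12.2% were lower without overlap. Kif15 led again at -1.11 ± 0.11 (limma adjusted p 1.7e-05), followed by Kif23 at -0.98 ± 0.11 (2.8e-05) and Kif22 at -0.94 ± 0.11 (3.1e-05). The talc arrays are those of the comparison with vehicle, so these values are not a separate experiment. Kif20b, at -0.61 ± 0.15 (adjusted p 0.015), was not called without TiO2 replicate 1 or 3 or without talc replicate 3 (0.060, 0.065 and 0.055). Kif20a and Kif18a were not called in a fit of the 6 arrays alone (0.055 and 0.060), and Kif18a and Kif20b not with their brightest probe set (0.051 and 0.11). Kif24 was called as well. It read 5.70, 5.66 and 5.74 with talc, 5.65, 5.68 and 5.69 with talc plus estradiol and 6.26, 6.41 and 6.07 with TiO2. With vehicle it read 5.81, 5.85 and 5.93, with estradiol 6.15, 5.87 and 5.80, and with TiO2 plus estradiol 5.93, 5.79 and 5.62. The TiO2 arrays were thus high for Kif24 as well as the talc arrays low, with vehicle in between. It was lower with talc than with TiO2 by 0.55 ± 0.11 (limma adjusted p 0.0050), and its brightest probe set gave -0.52 with an adjusted p of 0.36.

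With estradiol in both groups, 8 of the 11 mitotic kinesins were lower with talc than with TiO2, where 2.87% of all genes were called lower. These 8 fell in all 4 comparisons of talc with a control or with TiO2, as did 1.44% of all genes. The largest differences were those of Kif23 at -0.77 ± 0.11 (limma adjusted p 0.00036), Kif11 at -0.76 ± 0.11 (0.00054) and Kif15 at -0.73 ± 0.11 (7e-04). Kif14 (-0.31, adjusted p 0.094), Kif18b (-0.29, 0.16) and Kif20a (-0.27, 0.15) did not pass, and the arrays of Kif18b and Kif20a overlapped, while 11.5% of all genes were lower without overlap. Without TiO2 plus estradiol replicate 3, Kif20a passed at -0.40 (adjusted p 0.023). Kif4 (-0.45, adjusted p 0.025) was not called without TiO2 plus estradiol replicate 1 or 2 or talc plus estradiol replicate 1 or 3 (0.075 to 0.11). Kif20b (-0.63, adjusted p 0.014) was not called without TiO2 plus estradiol replicate 1 or 2 or talc plus estradiol replicate 1 (0.051 to 0.072). A fit of these 6 arrays alone called 4 of the 11, Kif11, Kif15, Kif18a and Kif23, and 6 kinesins in all. Kif18a did not pass with its brightest probe set (0.15).

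In that comparison 4 transport kinesins were higher, against 6.66% of all genes. Kif1b, a carrier of mitochondria and vesicles, had 7.52, 7.45 and 7.37 with talc plus estradiol and 6.86, 6.84 and 6.48 with TiO2 plus estradiol, a difference of 0.72 ± 0.12 (limma adjusted p 0.0012). Kif1c differed by 0.63 ± 0.11 (0.0023). Kif3b, a subunit of the kinesin-2 motor, had 7.80, 7.88 and 8.03 against 7.64, 7.20 and 7.24, a difference of 0.54 ± 0.15 (0.025). Kif13a, a carrier from endosomes, had 7.55, 7.59 and 7.58 against 7.38, 7.18 and 7.01, a difference of 0.38 ± 0.10 (0.018). The arrays did not overlap for any of the 4, as for 16.3% of all genes in that direction, and the TiO2 plus estradiol group had the lowest mean of the 6 groups. These are the arrays with the lowest upper quartiles, and among genes above the median level 1485 were higher and 482 lower in this comparison; the part of that shift in the transport calls was not tested. With quantile normalization all 4 were still called (adjusted p 0.0015 to 0.043). With the brightest probe set of each gene none was, at 0.14 for Kif1b, 0.46 for Kif1c, -0.01 for Kif3b and 0.29 for Kif13a. Kif13a was also lost without TiO2 plus estradiol replicate 3 or talc plus estradiol replicate 2 or 3 (0.054 to 0.080), and Kif3b without replicate 2 or 3 of either group (0.059 to 0.11).

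**Figure D4:**
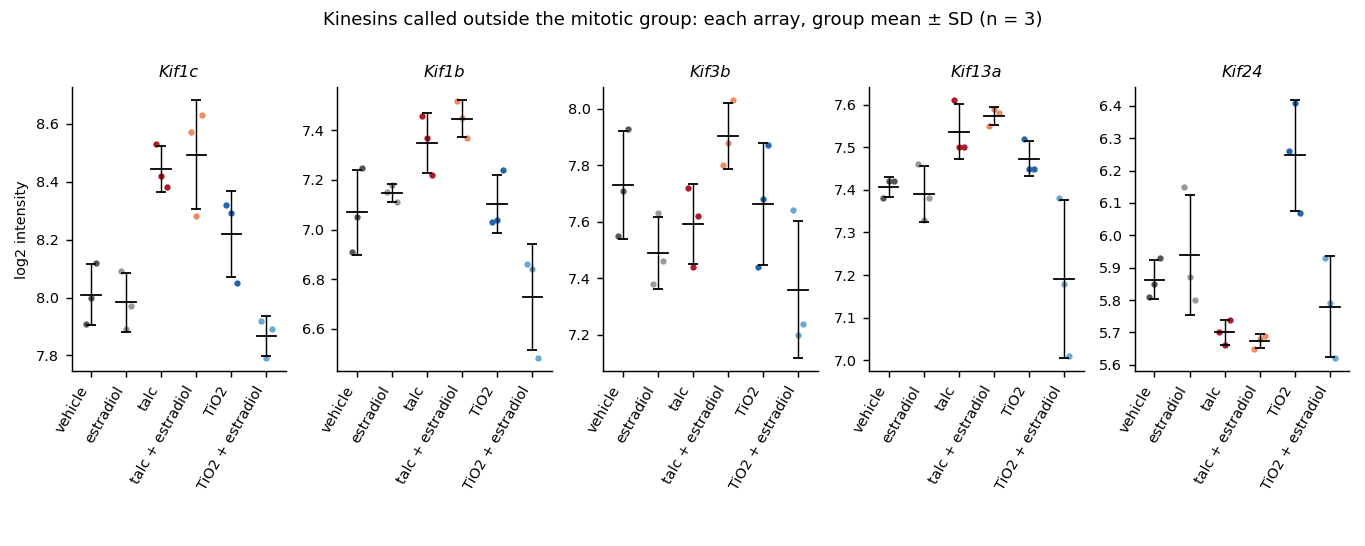
Log2 intensity of the 5 kinesins outside the mitotic group that passed in at least 1 comparison (vertical axis of each panel, with its own range) in the 6 treatment groups. Points are single arrays, and bars are the group mean ± SD of 3 arrays; Kif1c is high in both talc groups, Kif1b, Kif3b and Kif13a are lowest with TiO2 plus estradiol, and Kif24 is highest with TiO2.

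Estradiol alone called no kinesin and, by limma, no gene at all, with a mitotic median of -0.07, and 0 of the 38 kinesins and 4.87% of all genes had an unadjusted p under 0.05. Adding estradiol to talc called no kinesin and no other gene, with a mitotic median of 0.15, and 3 of 11 mitotic kinesins (Kif4 0.37, Kif22 0.28 and Kif2c 0.22) had an unadjusted p under 0.05, against 6.58% of all genes. Adding it to TiO2 called no kinesin, with a mitotic median of -0.09, which was also the median of genes above the median level. By limma 1 gene of all was called lower and 1 higher (0.00433% each). An unadjusted p under 0.05 was found for 9 of the 38 kinesins, against 13% of all genes. Whether the fall with talc differed with estradiol was tested as an interaction, and no kinesin and no other gene passed, with 3 kinesins and 6.32% of all genes at an unadjusted p under 0.05. The interaction was above 0, a smaller fall with estradiol, for 10 of 11 mitotic kinesins with a median of 0.22, while 50.3% of all genes and 57.7% of genes above the median level were above 0. Kif2c had the largest mitotic value, 0.40 ± 0.13 with a 95% interval of 0.12 to 0.68 (limma p 0.0075, adjusted p 0.64). The interaction of TiO2 and estradiol passed for no gene, with 7 kinesins and 8.05% of all genes at an unadjusted p under 0.05 and a mitotic median of -0.08.

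Genes that work with the kinesins were read from lists of known partners. Of 19 mitotic partners 17 fell with talc against vehicle and 14 in the estradiol arm, against 4.52% and 3% of all genes, none rose, and the medians were -0.71 and -0.58 where those of all genes were 0.02 and 0.00. Racgap1, the partner of Kif23, fell by 0.85 ± 0.09 (limma adjusted p 2.4e-05), Nusap1, a spindle microtubule binder, by 0.99 ± 0.11 and Incenp, a scaffold of the chromosomal passenger complex that Kif20a carries, by 0.97 ± 0.12. In the estradiol arm Nusap1 fell by 0.92, Aurkb, the kinase of that complex, by 0.90 and Prc1, which recruits Kif4 to the spindle middle, by 0.69. The left-out kinesin Cenpe, which tethers chromosomes to microtubules, fell by 0.88 ± 0.13 and 0.70 ± 0.13. It stands among the partners too, as does the left-out Kifc1. The 7 left-out genes include Kifap3 and Kifbp, which also stand among the cargo adaptors below. Of the 7, Cenpe alone was called lower with talc against vehicle. With estradiol Kifc2 was called lower as well, by 0.47 (all genes 4.52% and 3% called lower). All 7 had a change below 0 in both arms (46.7% and 50.6% of all genes), with medians of -0.28 and -0.26. An unadjusted limma p under 0.05 was found for 4 and 3 of the 7, against 19.8% and 19.1% of all genes.

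Of 21 transcription factors and regulators known for mitotic genes, 8 fell and 1 rose with talc against vehicle, and 6 fell and 1 rose in the estradiol arm, with medians of -0.26 and -0.20. The shares of all genes were 4.52% lower and 3.94% higher in the first and 3% lower and 4.13% higher in the second, so the count that fell lay above them and the count that rose was near them. Foxm1, an activator of genes of G2 phase and mitosis, fell by 0.93 ± 0.14 and 0.70 ± 0.14. Rbl1, a pocket protein, fell by 0.78 ± 0.11 and 0.68 ± 0.11. E2f8, a repressor of the E2F family, fell by 1.31 ± 0.20 against vehicle, and E2f7, its relative, by 0.89 ± 0.12 against estradiol. These are named by largest t within an arm, so a gene named in 1 arm may have changed in the other as well. The gene that rose in both was Cdkn1a, the inhibitor p21 of cyclin-dependent kinases, by 0.64 ± 0.14 (limma adjusted p 0.0081) and 0.67 ± 0.14 (0.0077).

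Few genes of the cargo side were called. Of 24 light chains and cargo adaptors of transport kinesins, 1 rose with talc against vehicle and 2 in the estradiol arm, none fell, and the medians were 0.06 and 0.07. Shares of 3.94% and 4.13% of all genes rose, so 1 and 2 of 24 are near the background. Klc2, a light chain of conventional kinesin, rose by 0.40 ± 0.12 (limma adjusted p 0.049) and 0.58 ± 0.12 (0.0059), and Plekhm2, which links lysosomes to kinesin, by 0.48 ± 0.10 in the estradiol arm. Of 26 genes of dynein and dynactin, the motor that walks the opposite way, Nde1 fell by 0.64 ± 0.12 and 0.47 ± 0.12, Dctn1 by 0.34 ± 0.10 against vehicle, and Dync1li1 rose by 0.33 ± 0.09 in the estradiol arm. These calls, 2 of 26 in each arm, are also near the background of 8.46% and 7.13% of all genes called in either direction, and the medians of that list were 0.04 and 0.06.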

How the data were processed

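Total RNA of J774 cells was labelled with biotin and hybridised to Affymetrix arrays, per the labels' protocols. The deposited values are intensities per probe set on a linear scale. The submitters' processing notes name RMA, without a version, and the step back from the log2 scale that RMA gives is not stated. The log2 of each intensity as the authors deposited it was therefore taken first. Of 269751 probe sets, 233753 carried a single gene symbol in the platform's annotation, for 23102 genes; 5106 carried several and 30892 none and were left out. The kinesins had 822, and 1 further probe set that names Kif3c with another gene was left out. Through RefSeq synonyms 2247 symbols were updated. A gene's value is the mean over its probe sets, so changes in exon use are averaged.

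All 18 arrays were fitted in 1 model with a mean per group in limma 3.58.1 (lmFit, eBayes; R 4.3.3; files were read by data.table, version 1.17.8), with 12 residual and 4.57 prior degrees of freedom and 11 contrasts, two-sided, adjusted over all genes. Precision is limited by the number of arrays: the standard error had a median of 0.151 over genes, or 0.213 in interactions. The script was tested on simulated data.

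The members and lists were chosen with earlier results of these data known. Every member that passed anywhere is named; array values are given for the 8 mitotic and up to 4 other members of largest t in the talc comparisons, and, chosen after their values were seen, for those called against TiO2 alone. From each further list up to 3 called genes of largest t are named in each talc comparison, with any that was the only one in its direction. Replicate numbers follow accession order within a group. No gene was filtered out. Alternatives were leaving out each array, a filter at the median level, the brightest probe set of a gene, array weights, quantile normalization, subtracted array medians, a robust variance with an intensity trend, and a fit to the arrays of 1 comparison alone. A further alternative fitted each probe set on its own and took the median over the probe sets of a gene. Of its 64 values for the members that passed anywhere, 9 no longer passed and 3 newly passed.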

Additional observations from a re-analysis of the deposited data

How the results depend on the processing

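The counts of kinesins called, in 11 comparisons under each alternative, stayed within 1.5 times in 285 of 286 cases. The exception was talc plus estradiol against TiO2 plus estradiol in a fit to its own arrays alone, which called 6. In the comparisons where the main fit called 0 kinesins the count stayed 0, so these cases say little about the calls. Equal counts can also hide a change of members. Leaving out each array in turn gave 11 to 13 kinesins for talc against vehicle, 9 to 13 for talc plus estradiol against estradiol, 11 to 12 for talc against TiO2, 9 to 12 for talc plus estradiol against TiO2 plus estradiol, and 0 in the other comparisons. All 11 mitotic kinesins were called lower with talc against vehicle in each of those 18 fits, and 9 of 11 were with talc plus estradiol against estradiol. The 16 members that passed anywhere were followed through 26 alternatives, leave-outs included, in the 4 comparisons of talc with a control or with TiO2. Of these 1664 values 1587 kept their side of the threshold, 66 no longer passed and 10 newly passed. Of these, 27 losses and 8 gains were in talc plus estradiol against TiO2 plus estradiol, where Kif3b also turned, to -0.01 with its brightest probe set. Quantile normalization or subtracted medians moved the median change of all genes by at most 0.03. No paired analysis was possible because array numbers run on from group to group, with no number shared. Groups of 3 arrays limit what could be called.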
